A study of Mus musculus with 162 samples.

Results

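Mouse liver late in a fast was compared with mouse liver in a daytime fast: the 6 liver (LIV) mRNA-seq libraries taken 18 and 22 h after food removal (late fast) against the 6 taken at 8 and 12 h (daytime fast), across all genes. The 12 libraries were picked by the organ and time point in their labels, with no measured value used, out of 18 LIV libraries and 162 libraries in the series. The series profiled several organs of male C57BL/6J mice, adults of 8 to 9 weeks, that had gone 0, 2, 8, 12, 18 or 22 h without food. Each time point had 3 mice, each LIV library is given as a different mouse, and water was available throughout. All mice were killed at the same clock time, shortly after the start of the dark period. Food was therefore removed in the light period for the 8 and 12 h groups (for 12 h, shortly after lights on) and in the preceding dark period for the 18 and 22 h groups, so the late groups also missed part of the preceding night's feeding.

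The liver releases glucose in a fast, first from glycogen and then by gluconeogenesis from lactate, glycerol and amino acids, and it turns fatty acids into ketone bodies. Falling insulin and rising glucagon and glucocorticoids lower the synthesis of fatty acids and cholesterol and raise amino acid uptake and breakdown. Many liver genes also follow the clock and the time of the last meal, and the hepatocytes share the organ with Kupffer cells, its resident macrophages, and with sinusoidal endothelium.

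The 12 libraries held 6959200 to 10910265 counts, a mean of 8824918 in the late and 9369155 in the daytime group (exact two-sided permutation p 0.446 over 924 arrangements). At these depths 3 counts equal 0.275 to 0.431 CPM. All 8 hepatocyte markers were expressed, and their summed level was 78261 to 95427 normalized CPM (counts scaled by library size and TMM factor) in daytime and 78984 to 103160 in late libraries, with Alb the most abundant at a mean of 59530. Sequencing lane was partly tied to the groups: 8 h replicates 1 and 2 ran in lane 1 and the other 10 libraries in lane 2, so the difference is also given within lane 2, with 4 daytime and 6 late libraries. The 18 h replicate 2 library stood apart, with the fewest genes with a count (16656, against 17851 to 19130 in the other 11) and the fewest total counts. In 12 h replicate 3, mitochondrial genes took 14.0% of the counts, against 4.24% to 9.49% in the other 11. By group, this share was 6.19% to 14.0% in daytime and 4.24% to 8.82% in late libraries. Its part in the results was not tested. Among the 0 and 2 h libraries, whose levels are given below for a few genes as a description only, 0 h replicates 1 and 2 differed little beyond counting noise (chi-square per degree of freedom 2.13, against 9.64 to 90.0 in the other 17 pairs of one time point), and may not be 2 independent samples. Below, rose and fell refer to late against daytime libraries, not to a change from the fed level. For some genes that passed, the 0 and 2 h median lay near the late one, as for Upp2 (671, against 644 late and 419 daytime). For others it lay near the daytime one, as for Hmgcs1 (232, against 121 late and 234 daytime).

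Of 14023 genes tested with edgeR, 192 passed the test (adjusted p under 0.05), 1.37% of all genes: 71 were higher late in the fast (0.506%) and 121 were lower (0.863%). With a log2 fold change beyond 1 as well, the rule for a differentially expressed gene (DEG), 17 genes were higher (0.121%) and 23 lower (0.164%). At an unadjusted p under 0.05 there were 2592 genes (18.5%), 1260 higher (8.99%) and 1332 lower (9.5%). DESeq2 called 655 (4.67%), 260 higher (1.85%) and 395 lower (2.82%), among them all 192. These shares of all genes are the measure for the counts of each gene list below. The lists and their members were chosen with earlier results of these data known. A list count above these shares is therefore not an independent test of the list. The groups did not overlap at all for 34 of the 71 higher genes and 53 of the 121 lower ones, and over all 14023 genes for 96 with the late libraries above and 111 with them below. The 18 h replicate 1 library lay inside the daytime range for 66 of the 192 genes, more than any other late library, and 18 h replicate 2 for 7. These counts depended on single libraries. Without 18 h replicate 1, 745 genes passed, without 8 h replicate 3 312, and without 12 h replicate 1 288. Without 8 h replicate 1, 8 h replicate 2, 18 h replicate 2 or 22 h replicate 2 the numbers were 14, 5, 7 and 4. Without 18 h replicate 3, 12 h replicate 3 or 22 h replicate 3 they were 24, 47 and 91, and without 12 h replicate 2 the number was 127. With both 18 h replicate 2 and 12 h replicate 3 left out, 3 genes passed, and DEGs numbered 2 higher and 1 lower. Beside each gene that passed, the number of the 12 fits without 1 library in which it passed is given below as, for example, 9 of 12 fits.

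**Figure D1:**
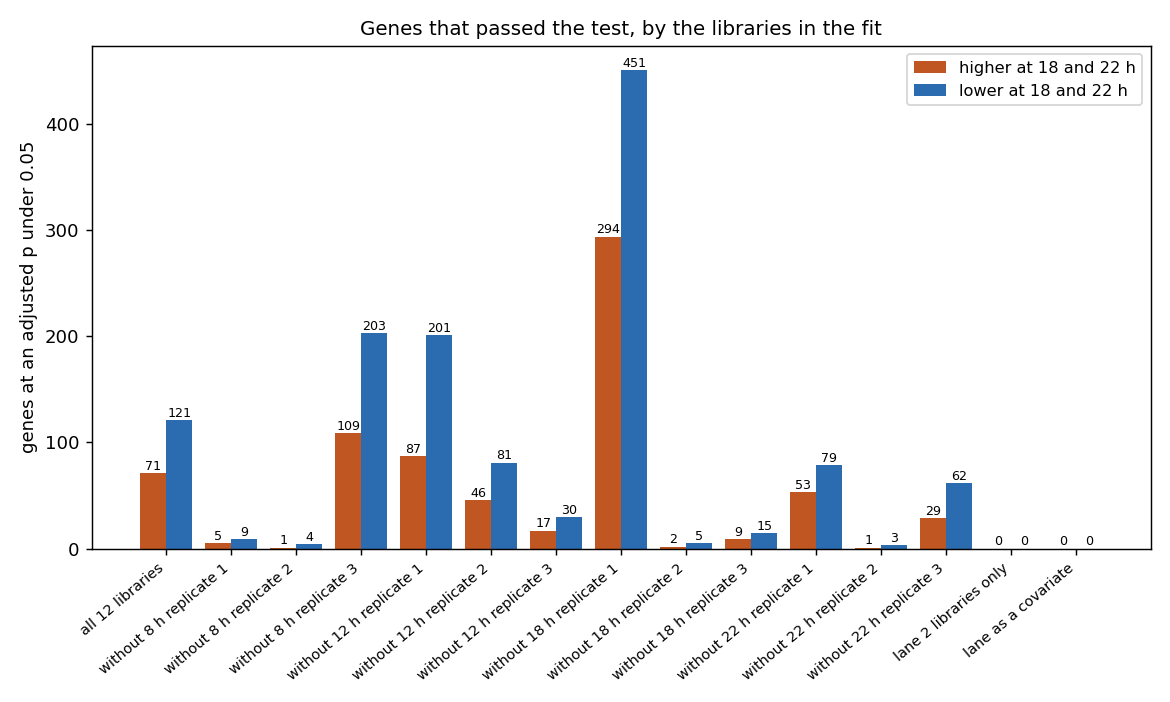
Genes at an adjusted p under 0.05 (vertical axis, number of genes), higher (orange) and lower (blue) at 18 and 22 h than at 8 and 12 h, for the fit of all 12 libraries, for each fit without 1 library and for both fits that take lane into account. The number runs from 4 genes without 22 h replicate 2 to 745 without 18 h replicate 1, and is 0 in both lane fits.

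Within lane 2 edgeR called 0 genes, with a smallest adjusted p of 0.105, and 1511 genes at an unadjusted p under 0.05. DESeq2 was run on all 12 libraries only. With lane as a covariate edgeR also called 0, with 1652 at an unadjusted p under 0.05. All 192 genes had the same sign within lane 2. The lane 2 libraries are part of the 12 that picked these genes, so sign and size there are not an independent test. The median log2 fold change of the higher genes was 0.67 over all 12 libraries and 0.61 in lane 2, and that of the lower genes -0.72 and -0.62. The median over all genes tested was 0.005, and -0.0019 in lane 2. Taken apart by time, late libraries against 8 h alone gave 254 genes and against 12 h alone 1 gene. Compared with all 6 daytime libraries, 18 h alone gave 81 genes and 22 h alone 93.

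On the gluconeogenesis list Pck1 had the smallest adjusted p, while Lpin1 had a larger log2 fold change (1.33, adjusted p 0.177). Pck1 encodes the cytosolic phosphoenolpyruvate carboxykinase that commits carbon to glucose (chr2:173153048-173159273, GRCm38). It measured 1989 to 3854 (median 2612) normalized CPM in daytime libraries and 3793 to 8513 (median 5937) in late ones (log2 fold change 1.17, SE 0.19, adjusted p 0.0201, 9 of 12 fits). Of the 6 late libraries, 5 lay above every daytime library, and the exception, 18 h replicate 1 at 3793, was just under 8 h replicate 3 at 3854. In lane 2 its log2 fold change was 0.99, and the adjusted p of Pck1 was 0.0568 without 8 h replicate 2, 0.0551 without 18 h replicate 2 and 0.0595 without 22 h replicate 2. The 0 and 2 h libraries spanned 564 to 6901 (median 5053), with 0 h replicate 3 the low one. Pck1 was the one gene to pass of the 24 tested on the gluconeogenesis list, where 17 had a log2 fold change above 0, with a median log2 fold change of 0.17 (0.18 in lane 2) and 8 higher and 1 lower at an unadjusted p under 0.05 and 2 and 1 by DESeq2. G6pc, the glucose-6-phosphatase subunit, did not pass (-0.24, adjusted p 0.712) and had the other sign in lane 2 (0.20), nor did the coactivator Ppargc1a (0.61, adjusted p 0.317).

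The promoter of Pck1 is printed because the gene has a well known cAMP response element, and the 160 bases before its RefSeq transcription start (chr2:173152913-173153072, plus strand, GRCm38.p6) hold a match. The letters TTACGTCA were searched on both strands, and capitals mark the match, which begins 93 bases before the RefSeq start. That start is not the Gencode start given above. The 2 differ for Pck1 and, among genes searched below, for Fkbp4, Hmgcs1, Hspa4l, Insig1 and Pdia4. Of these, Hspa4l, Insig1 and Pdia4 hold no match in the window searched.
Pck1: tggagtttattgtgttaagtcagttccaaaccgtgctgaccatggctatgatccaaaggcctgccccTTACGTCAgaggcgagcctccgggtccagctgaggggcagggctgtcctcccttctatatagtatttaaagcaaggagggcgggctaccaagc
Of 32851 RefSeq mouse promoters cut to the same window, 0.374% hold these letters. The match describes the sequence only.

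Single genes of amino acid handling passed the test in both directions. Sds, the serine dehydratase that turns serine into pyruvate, measured 259 to 359 (median 271) normalized CPM in daytime and 319 to 1305 (median 603) in late libraries (log2 fold change 1.24, SE 0.26, adjusted p 0.0445, 4 of 12 fits). Only 22 h replicate 1, at 319, fell inside the daytime range, and 18 h replicate 3 was highest; the highest adjusted p of Sds with 1 library left out was 0.123, without 8 h replicate 2. Slc38a2, a transporter of small neutral amino acids, spanned 108 to 156 (median 127) in daytime and 172 to 316 (median 211) in late libraries (log2 fold change 0.79, SE 0.14, adjusted p 0.0201, 8 of 12 fits), with no overlap. The low-expressed Chac1, which breaks down glutathione, went from 1.6 to 4.46 (median 3) to 4.68 to 12 (median 6.02) (log2 fold change 1.16, SE 0.28, adjusted p 0.0468, 2 of 12 fits), again without overlap, though 18 h replicate 2 alone exceeded 6.6. In the opposite direction, Slc1a5, a neutral amino acid exchanger, fell from 15.7 to 32.9 (median 20.8) to 6.54 to 14.9 (median 12.9) (log2 fold change -0.82, SE 0.19, adjusted p 0.0442, 3 of 12 fits). In lane 2 the log2 fold changes of these genes were 1.17 for Sds, 0.71 for Slc38a2, 1.16 for Chac1 and -0.84 for Slc1a5.

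The lists these genes come from had 1 to 3 members past the test. On the amino acid catabolism list, Sds was the 1 higher gene and Afmid, the formamidase of the kynurenine pathway, the 1 lower gene (-0.64, adjusted p 0.0331, 4 of 12 fits) of 64 tested, with a median log2 fold change of 0.02 (0.04 in lane 2) and 7 higher and 5 lower at an unadjusted p under 0.05 and 3 and 3 by DESeq2. Agxt (0.65, adjusted p 0.0511) and Got1 (0.97, adjusted p 0.0744), both aminotransferases, had 5 of 6 late libraries above the daytime range and did not pass, and neither did Tat (0.63, adjusted p 0.223). The ATF4 list had 2 higher genes, Slc38a2 and Chac1, and 1 lower, Slc1a5, of 40, with a median log2 fold change of 0.13 (0.11 in lane 2). Of these 40, 31 had a log2 fold change above 0, with 12 higher and 2 lower at an unadjusted p under 0.05 and 5 and 1 by DESeq2 (8.99%, 9.5%, 1.85% and 2.82% among all genes). Asns (0.84, adjusted p 0.481) and Trib3 (0.88, adjusted p 0.108) did not pass, and Asns was at 1.38 without 12 h replicate 2 and 0.53 without 18 h replicate 2. None of the 15 urea cycle and ammonia genes passed by edgeR, with 2 at an unadjusted p under 0.05 and 1 by DESeq2; the arginine and lysine transporter Slc7a2 came closest (1.17, adjusted p 0.0594), and Ass1 (0.45, adjusted p 0.188) did not pass either. Pck1 and Sds were also the 2 genes that passed among 18 periportal genes, 16 of which had a log2 fold change above 0 (a median log2 fold change of 0.20 (0.20 in lane 2)), with 5 higher and 0 lower at an unadjusted p under 0.05 and 4 and 0 by DESeq2. No gene passed by edgeR among 23 pericentral genes, with 3 higher and 3 lower at an unadjusted p under 0.05 and 1 and 0 by DESeq2 (a median log2 fold change of -0.07 (-0.11 in lane 2)).

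**Figure D2:**
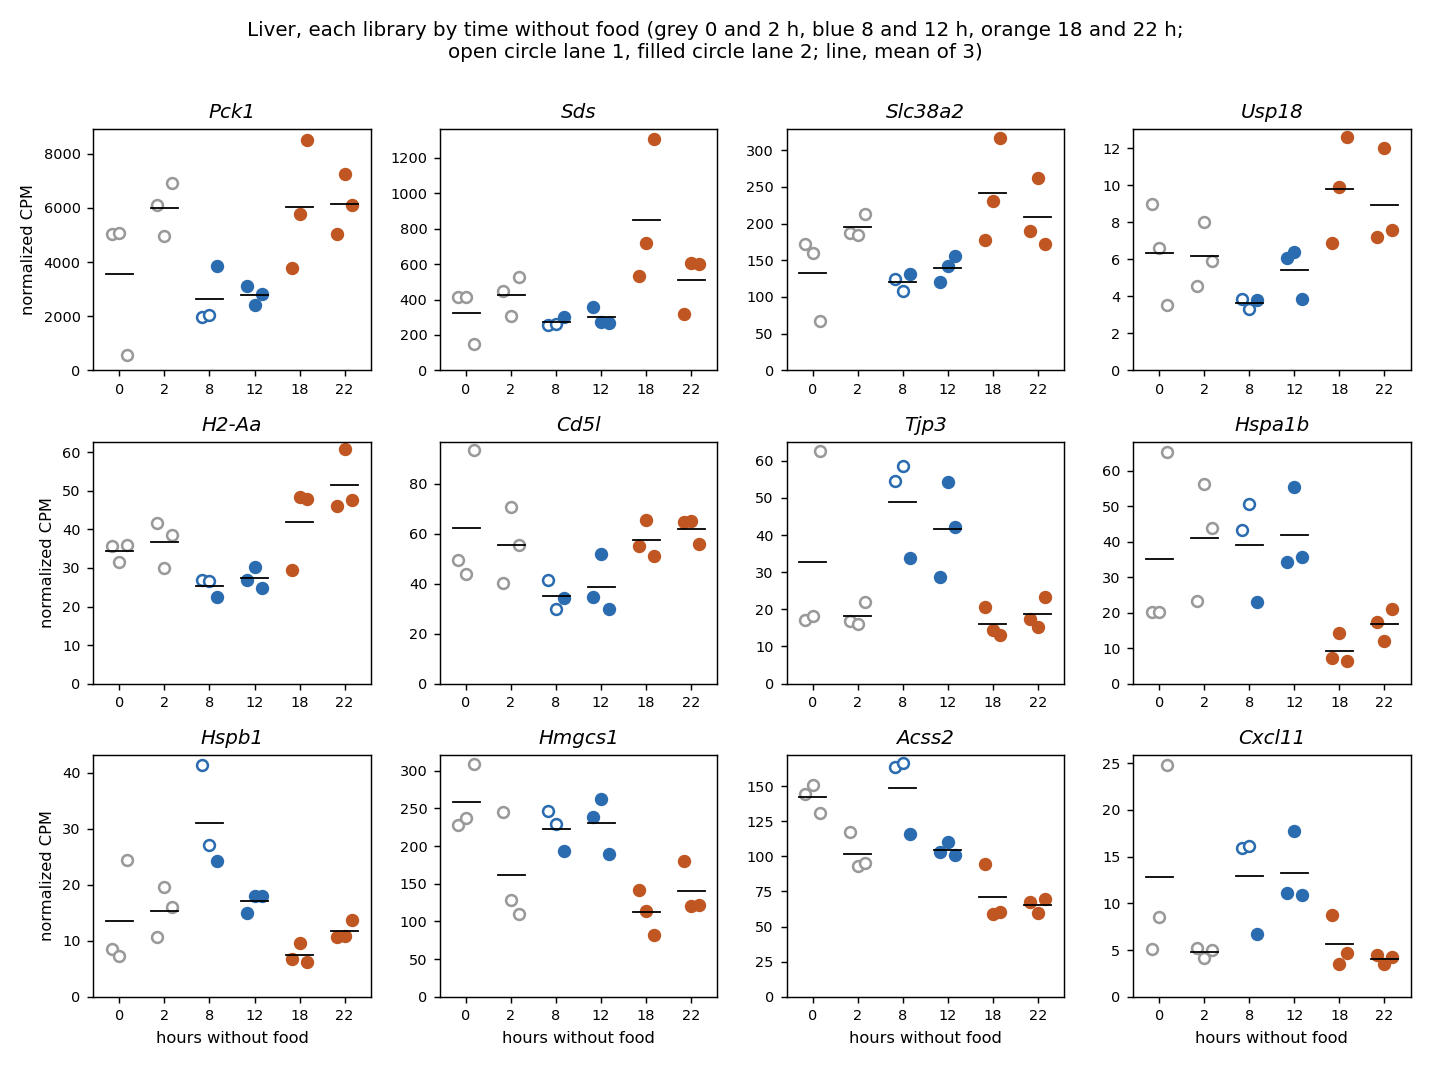
Normalized CPM (vertical axes, linear, from 0) of 12 genes in each of the 18 LIV libraries by hours without food (0 and 2 h grey, 8 and 12 h blue, 18 and 22 h orange), open circles for lane 1, filled for lane 2, lines for the mean of 3 mice. Pck1, Sds, Slc38a2, Usp18, H2-Aa and Cd5l are higher at 18 and 22 h than at 8 and 12 h, and Tjp3, Hspa1b, Hspb1, Hmgcs1, Acss2 and Cxcl11 are lower.

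Heat shock genes made up the list with the most lower members past the adjusted p. Of 32 heat shock and cold-inducible genes tested, 5 passed and all of them fell, against 0.863% lower among all genes (12 lower by DESeq2, against 2.82%), 24 had a log2 fold change below 0, and the list had a median log2 fold change of -0.27 (-0.21 in lane 2). Hspa1b, an inducible 70 kDa heat shock protein gene, measured 23 to 55.5 (median 39.4) normalized CPM in daytime and 6.29 to 21.1 (median 13.1) in late libraries (log2 fold change -1.63, SE 0.31, adjusted p 0.0331, 5 of 12 fits). Each late library was below every daytime library, with 18 h replicates 1 and 3 lowest, at 7.33 and 6.29. Hspb1, a small heat shock protein gene, fell from 15 to 41.4 (median 21.2) to 6.2 to 13.7 (median 10.1) (log2 fold change -1.32, SE 0.26, adjusted p 0.0307, 8 of 12 fits), with no overlap and the lane 1 library 8 h replicate 1 highest. Its log2 fold change was -0.98 in lane 2, and that of Hspa1b -1.51. Hspa4l, of the HSP110 family, fell from 19.2 to 37.3 (median 27.9) to 9.54 to 17 (median 11.9) without overlap (log2 fold change -1.18, SE 0.17, adjusted p 0.00944, 12 of 12 fits). With 1 library left out, the highest adjusted p of Hspa1b was 0.0932, without 8 h replicate 2, and the adjusted p of Hspb1 was 0.0839 without 8 h replicate 2, 0.0843 without 18 h replicate 2, 0.0678 without 18 h replicate 3 and 0.0713 without 22 h replicate 2.

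The other 2 lower members were a chaperone and its partner. Hsp90aa1, the inducible cytosolic HSP90, spanned 105 to 189.6 (median 135) in daytime and 57.8 to 105 (median 72.7) in late libraries (log2 fold change -0.89, SE 0.15, adjusted p 0.0201, 9 of 12 fits). The 22 h replicate 3 library sat at the bottom of the daytime range and the other 5 late ones below it. Fkbp4, an immunophilin that binds HSP90, went from 209.9 to 241 (median 220.1) to 145 to 207 (median 168) with no overlap (log2 fold change -0.39, SE 0.09, adjusted p 0.0468, 3 of 12 fits). It was also the 1 lower gene on the glucocorticoid response list. The cold-inducible Cirbp did not pass (0.33, adjusted p 0.24). The processed pseudogene Hsp25-ps1, close in sequence to Hspb1, fell as well (log2 fold change -1.49, SE 0.30, adjusted p 0.0331, 7 of 12 fits), as did Gm12346, a transcribed processed pseudogene within Ssh2 (log2 fold change -1.21, SE 0.16, adjusted p 0.00944, 12 of 12 fits). Gm12346 measured 27.6 to 48.7 (median 44.5) in daytime and 11.5 to 22 (median 19) in late libraries. Counts of near-identical copies, Hspb1 with Hsp25-ps1 and Hspa1b with Hspa1a among them, rest on the reads that map uniquely and are less certain than those of other genes.

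Promoters of the lower heat shock genes are shown because heat shock factor binds inverted GAA repeats. The letters GAANNTTC, which are their own reverse complement, were searched in the 160 bases before the RefSeq start of the 4 lower genes with a RefSeq promoter (Hspa4l, Hspb1, Hspa1b and Fkbp4; Hsp90aa1 has no entry), and 3 of them hold a match. Capitals mark the matches, which begin 117 and 97 bases before the start in Hspb1 (chr5:135887759-135887918, plus strand), 104 bases before it in Hspa1b (chr17:34959239-34959398, minus strand) and 151 in Fkbp4 (chr6:128438657-128438816, minus strand), all on GRCm38.p6.
Hspb1: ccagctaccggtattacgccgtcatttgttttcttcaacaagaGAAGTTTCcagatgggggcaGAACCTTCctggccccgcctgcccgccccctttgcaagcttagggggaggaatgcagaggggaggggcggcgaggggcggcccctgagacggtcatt
Hspa1b: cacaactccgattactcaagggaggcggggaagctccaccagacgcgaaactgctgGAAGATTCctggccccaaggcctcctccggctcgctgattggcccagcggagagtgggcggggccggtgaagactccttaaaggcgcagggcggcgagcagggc
Fkbp4: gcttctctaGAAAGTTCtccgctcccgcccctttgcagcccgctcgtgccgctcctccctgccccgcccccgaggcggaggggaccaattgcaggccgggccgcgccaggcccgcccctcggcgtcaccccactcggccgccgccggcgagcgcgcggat
Of all 32851 promoters, 4.21% hold these letters in that window.

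Endoplasmic reticulum (ER) chaperones and genes of the unfolded protein response leaned the same way. Of 45 tested, 3 passed and all fell, against 0.863% lower among all genes (7 lower by DESeq2, against 2.82%), 38 had a log2 fold change below 0, and the list had a median log2 fold change of -0.14 (-0.16 in lane 2). Syvn1, the ubiquitin ligase of ER-associated degradation, measured 186 to 461 (median 346) normalized CPM in daytime and 132 to 230 (median 171) in late libraries (log2 fold change -0.97, SE 0.19, adjusted p 0.0307, 6 of 12 fits). The groups overlapped through 8 h replicate 3, the lowest daytime library at 186. Sdf2l1, an ER-resident chaperone partner, fell from 19.9 to 36.7 (median 27.5) to 7.53 to 21.6 (median 12.5) (log2 fold change -1.03, SE 0.22, adjusted p 0.0397, 4 of 12 fits), with 5 of 6 late libraries below the daytime range. Pdia4, a protein disulfide isomerase, fell from 82.7 to 128 (median 110.3) to 61.1 to 104 (median 71.8) (log2 fold change -0.54, SE 0.13, adjusted p 0.0458, 4 of 12 fits). Hspa5, the main ER chaperone, did not pass (-0.39, adjusted p 0.128), with 5 of 6 late libraries below the daytime range. In lane 2 the log2 fold changes were -0.90 for Syvn1, -0.98 for Sdf2l1 and -0.45 for Pdia4; the highest adjusted p of Syvn1 with 1 library left out was 0.0839, without 8 h replicate 2. Among these 3 genes, the ER stress element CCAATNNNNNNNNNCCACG, searched on both strands in the same 160-base window, matches in Syvn1 only, 44 bases before the start (chr19:6046416-6046575, plus strand, GRCm38.p6, RefSeq), and its promoter is shown with the match in capitals.
Syvn1: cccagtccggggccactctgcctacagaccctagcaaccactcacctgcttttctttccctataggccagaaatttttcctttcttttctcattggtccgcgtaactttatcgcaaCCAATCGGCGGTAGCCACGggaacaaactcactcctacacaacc
The element is in 0.0913% of all promoters.

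In cholesterol synthesis, 3 genes fell of the 32 tested. Of the list, 28 genes had a log2 fold change below 0, 17 were lower at an unadjusted p under 0.05 (9.5% among all genes), DESeq2 called 9 lower and 1 higher (2.82% and 1.85%), and there was a median log2 fold change of -0.34 (-0.34 in lane 2). Hmgcs1, the cytosolic HMG-CoA synthase, measured 189 to 262 (median 234) normalized CPM in daytime and 81.3 to 180.3 (median 121) in late libraries (log2 fold change -0.84, SE 0.15, adjusted p 0.0201, 8 of 12 fits). All 6 late libraries were below the daytime ones, nearest in 22 h replicate 1 at 180.3; the adjusted p of Hmgcs1 was 0.0612 without 8 h replicate 1, 0.0609 without 8 h replicate 2, 0.0614 without 18 h replicate 2 and 0.0595 without 22 h replicate 2. Mvd, the mevalonate diphosphate decarboxylase, fell from 13 to 31.4 (median 20.4) to 4.96 to 15.5 (median 9.57) (log2 fold change -1.08, SE 0.25, adjusted p 0.047, 3 of 12 fits). Insig1, not an enzyme but an ER protein that holds back the activation of sterol-regulated transcription, fell from 190.3 to 307 (median 234) to 121 to 192 (median 152) (log2 fold change -0.64, SE 0.15, adjusted p 0.0428, 5 of 12 fits). The sterol element TCACCCCAC, searched on both strands, occurs in 0.32% of all promoters and, of the 3 lower genes, in that of Hmgcs1, 137 bases before the start (chr13:119690191-119690350, plus strand, GRCm38.p6, RefSeq), shown with the match in capitals.
Hmgcs1: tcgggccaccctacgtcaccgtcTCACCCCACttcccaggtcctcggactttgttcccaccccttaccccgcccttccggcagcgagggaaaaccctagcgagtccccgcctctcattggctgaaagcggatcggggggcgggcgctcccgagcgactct

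For fatty acid synthesis, 1 of 28 genes passed, Acss2, which makes acetyl-CoA from acetate outside the mitochondria. It measured 101 to 167 (median 113) normalized CPM in daytime and 58.6 to 94.5 (median 64) in late libraries (log2 fold change -0.89, SE 0.15, adjusted p 0.0201, 9 of 12 fits). The groups did not overlap, yet the daytime highs were the 2 lane 1 libraries, at 164 and 167, and in lane 2 the log2 fold change was -0.65. On the list, 24 genes had a log2 fold change below 0, and the median was -0.39 over all 12 libraries and -0.19 in lane 2, with 0 higher and 10 lower at an unadjusted p under 0.05 and 0 and 5 by DESeq2 (8.99%, 9.5%, 1.85% and 2.82% among all genes). Acacb (-0.80, adjusted p 0.0614), Acly (-0.63, adjusted p 0.13), Fasn (-1.13, adjusted p 0.196), Scd1 (-0.75, adjusted p 0.427) and Srebf1 (-0.12, adjusted p 0.886) did not pass. In glycolysis and glucose sensing, the fructose-pathway enzyme Tkfc was the 1 gene of 40 to pass (log2 fold change -0.51, SE 0.12, adjusted p 0.0433, 4 of 12 fits), and Pklr (-0.89, adjusted p 0.0688) did not. Pltp, the phospholipid transfer protein of lipoproteins, was the 1 lower gene of 49 on the triglyceride, droplet and lipoprotein list, going from 33.3 to 78.3 (median 50.3) to 19.6 to 33.1 (median 27.6) with no overlap (log2 fold change -0.97, SE 0.21, adjusted p 0.0436, 4 of 12 fits). Lpin1 (1.33, adjusted p 0.177) and Apoa4 (0.08, adjusted p 0.833) did not pass. Phka2, a subunit of liver phosphorylase kinase, was the 1 glycogen gene of 21 to pass, and it rose (0.55, adjusted p 0.0332, 6 of 12 fits). Higher and lower genes at an unadjusted p under 0.05, and then by DESeq2, numbered 3, 10, 2 and 3 for glycolysis, 7, 7, 1 and 3 for the triglyceride list and 3, 7, 2 and 2 for glycogen.

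**Figure D3:**
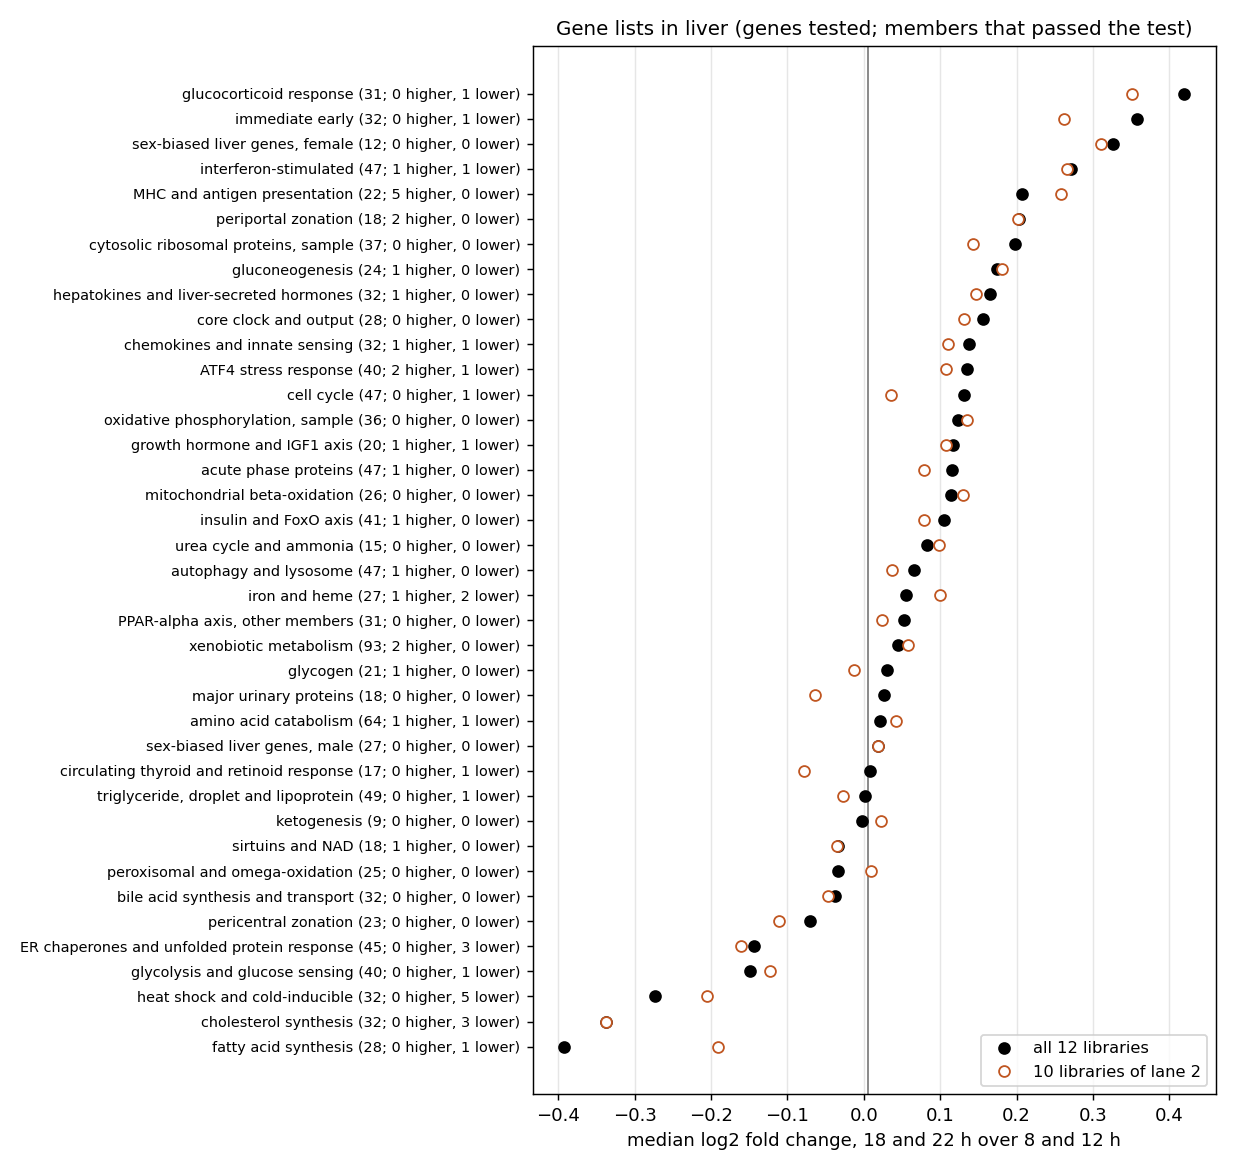
Median log2 fold change (18 and 22 h over 8 and 12 h, horizontal axis) of 39 gene lists over all 12 libraries (black) and over the 10 libraries of lane 2 (open orange), with the grey line at the median of all genes tested; labels give the genes tested and how many passed. Fatty acid synthesis has the lowest median over all libraries, -0.39, and -0.19 in lane 2, and cholesterol synthesis has -0.34 in both.

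Ketone body and fatty acid oxidation genes did not pass by edgeR: 0 of 9 for ketogenesis (2 at an unadjusted p under 0.05), 0 of 26 for mitochondrial beta-oxidation (5), 0 of 25 for peroxisomal and omega-oxidation (6) and 0 of 31 for other PPAR-alpha genes (10). Among all genes 18.5% had an unadjusted p under 0.05. DESeq2 called 1, 0, 4 and 2 genes on these lists, against 4.67% of all genes. Cpt1a, which lets fatty acids into mitochondria, spanned 131 to 246 (median 146) normalized CPM in daytime and 171 to 309 (median 209) in late libraries (0.41, adjusted p 0.181). Values for the other genes a reader of fasting liver may look for were 0.06 for Ppara (adjusted p 0.91), 0.31 for Angptl4 (0.624), -1.37 for Pdk4 (0.181), 1.24 for Fgf21 (0.237) and -0.18 for Cyp4a14 (0.937), as log2 fold changes. The sign turned for Ppara without 8 h replicate 1, 12 h replicate 2, 18 h replicate 3 or 22 h replicate 2 (-0.05 at the lowest), and for Cyp4a14 without 8 h replicate 3 (0.58) or 18 h replicate 1 (0.06). Cyp4a31 (1.92, adjusted p 0.0637) and Acaa1b (-0.64, adjusted p 0.0618) did not pass either. All were compared with livers already 8 or 12 h into a fast.

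The MHC and antigen presentation list had the most calls of the immune lists. Of 22 genes tested on the MHC and antigen presentation list, 5 passed and all rose, against 0.506% higher among all genes, with a median log2 fold change of 0.21 (0.26 in lane 2) and 10 higher and 0 lower at an unadjusted p under 0.05 and 5 and 0 by DESeq2. Off the list, and chosen after their values were seen, the MHC class I pseudogene H2-K2 (-0.71, adjusted p 0.0281, 8 of 12 fits) and Rfxank, a regulator of class II transcription (-0.58, adjusted p 0.0281, 6 of 12 fits), fell. H2-Aa, a class II alpha chain, measured 22.3 to 30.2 (median 26.7) normalized CPM in daytime and 29.4 to 60.8 (median 47.7) in late libraries (log2 fold change 0.83, SE 0.13, adjusted p 0.0124, 11 of 12 fits). Only 18 h replicate 1, at 29.4, reached into the daytime range. Its partner chain H2-Ab1 went from 15.3 to 29 (median 21.7) to 28.1 to 47.4 (median 41.4) (log2 fold change 0.87, SE 0.15, adjusted p 0.0201, 9 of 12 fits), with the same 5 of 6 late libraries above the daytime range. The others were H2-Eb1 (0.67, adjusted p 0.0281, 5 of 12 fits), the class II chaperone Cd74 (0.61, adjusted p 0.0331, 4 of 12 fits) and the immunoproteasome subunit Psmb10 (0.54, adjusted p 0.0281, 6 of 12 fits), whose groups did not overlap. In lane 2 the log2 fold changes were 0.84, 0.85, 0.66, 0.62 and 0.48 for H2-Aa, H2-Ab1, H2-Eb1, Cd74 and Psmb10. Without 1 library, the adjusted p of H2-Aa was 0.0512 without 22 h replicate 2, and the adjusted p of H2-Ab1 was 0.06 without 8 h replicate 2, 0.0551 without 18 h replicate 2 and 0.0595 without 22 h replicate 2. The highest adjusted p was 0.0839 for H2-Eb1, 0.098 for Cd74 and 0.0839 for Psmb10, each without 8 h replicate 2. Of the 5, only H2-Aa passed without 8 h replicate 2.

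Kupffer cell markers were examined beside the class II genes. All 10 Kupffer cell and macrophage markers had a log2 fold change above 0 and 2 passed, against 1.37% of all genes. At an unadjusted p under 0.05 there were 7, against 18.5% of all genes, and DESeq2 called 4, against 4.67%. Cd5l, a secreted macrophage protein, rose from 29.9 to 51.7 (median 34.2) to 51.2 to 65.4 (median 60.2) (log2 fold change 0.69, SE 0.13, adjusted p 0.0202, 9 of 12 fits). Clec4f, a Kupffer cell lectin and the most abundant marker, rose from 67.8 to 115 (median 72.4) to 98 to 143 (median 110.1) (log2 fold change 0.55, SE 0.13, adjusted p 0.0468, 2 of 12 fits), with 12 h replicate 2 at 115 the daytime high. Summed over the 10 markers, the level was 221.1, 192, 214, 220.03, 339 and 209 normalized CPM in 8 h replicates 1 to 3 and 12 h replicates 1 to 3, and 273, 348, 292, 419, 404 and 317 in the 18 h and 22 h libraries in that order. The chemokine Ccl9 rose without overlap (0.64, adjusted p 0.0281, 6 of 12 fits). Chosen after their values were seen, the mannose receptor Mrc1 (0.52, adjusted p 0.0281, 6 of 12 fits), the leukocyte actin bundler Lcp1 (0.42, adjusted p 0.0458, 2 of 12 fits) and the lysosomal protease Lgmn (0.60, adjusted p 0.0436, 2 of 12 fits) also rose. Median log2 fold changes were 0.50 for the Kupffer markers, 0.23 for 9 sinusoidal endothelium markers and 0.18 for the 8 hepatocyte markers, and on those last 2 lists edgeR and DESeq2 called 0 genes, with 0 and 2 at an unadjusted p under 0.05. More Kupffer cells and more RNA per cell cannot be told apart in bulk tissue, and the part of either in the class II values was not tested.

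Interferon and innate genes gave calls in both directions. Usp18, which removes the ubiquitin-like ISG15, rose from 3.31 to 6.41 (median 3.86) to 6.91 to 12.6 (median 8.75) (log2 fold change 1.04, SE 0.21, adjusted p 0.0281, 6 of 12 fits), without overlap. Cxcl11, annotated as a polymorphic pseudogene in this strain's genome and overlapping Art3, fell from 6.75 to 17.7 (median 13.5) to 3.48 to 8.77 (median 4.34) (log2 fold change -1.42, SE 0.25, adjusted p 0.0208, 7 of 12 fits). Of its late libraries 5 lay below the daytime range, and 18 h replicate 1 was inside it. These were the 2 that passed of 47 interferon-stimulated genes, 38 of which had a log2 fold change above 0 (a median log2 fold change of 0.27 (0.27 in lane 2)), with 15 higher and 2 lower at an unadjusted p under 0.05 and 1 and 1 by DESeq2. Tlr5, the flagellin receptor, fell (-0.96, adjusted p 0.0382, 5 of 12 fits) without overlap, and it and Ccl9 were the 2 to pass of 32 chemokine and innate sensing genes, with 8 higher and 3 lower at an unadjusted p under 0.05 and 1 and 1 by DESeq2. Among 47 acute phase genes the 1 to pass was Serpina3g, which rose (0.95, adjusted p 0.0433, 3 of 12 fits), with 11 higher and 2 lower at an unadjusted p under 0.05 and 3 and 1 by DESeq2. Saa1 spanned 14 to 379 (median 23.1) in daytime and 36.6 to 167 (median 77.9) in late libraries (0.04, adjusted p 0.988), and 12 h replicate 2 alone held the daytime high, also for Saa2 (-0.39, adjusted p 0.888) and Lcn2 (-0.44, adjusted p 0.839). Without that library the log2 fold changes were 1.91 for Saa1, 2.24 for Saa2 and 1.54 for Lcn2, with adjusted p 0.0862, 0.103 and 0.0834. In lane 2 that of Saa1 was -0.43, and it lay between -0.28 and 0.19 in the other 11 fits without 1 library. In 12 h replicate 2 the Kupffer marker sum was also the daytime high.

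Tight junction genes were not on any list and were chosen after their values were seen, apart from Tjp3. Tjp3 encodes ZO-3, a scaffold of the tight junction (chr10:81273207-81291581, GRCm38). It measured 28.6 to 58.6 (median 48.1) normalized CPM in daytime and 13.1 to 23.4 (median 16.3) in late libraries (log2 fold change -1.38, SE 0.19, adjusted p 0.00944, 12 of 12 fits). The groups did not overlap, and in lane 2 the log2 fold change was -1.19. In the fed and 2 h libraries the range was 15.9 to 62.6 (median 17.7), 5 of them under every daytime library and 0 h replicate 3 above all. Cgn, the junction protein cingulin, fell from 51 to 84.3 (median 63.8) to 22.3 to 42.5 (median 31.7) without overlap (log2 fold change -0.99, SE 0.15, adjusted p 0.0124, 11 of 12 fits). In the fed and 2 h libraries Cgn spanned 27.7 to 54.4 (median 30.4), with the median near that of the late libraries. Cldn1, a claudin of the junction strand, fell from 29.5 to 63.5 (median 43.6) to 15 to 31.1 (median 24.6) (log2 fold change -0.96, SE 0.21, adjusted p 0.0436, 4 of 12 fits). Palld, an actin-binding protein, fell from 61.8 to 107 (median 73.3) to 22.7 to 54.4 (median 36.2) (log2 fold change -1.13, SE 0.19, adjusted p 0.0202, 8 of 12 fits), and Lad1, an anchoring filament protein, from 11.9 to 14.1 (median 12.9) to 3.15 to 10.2 (median 6.02) (log2 fold change -1.03, SE 0.19, adjusted p 0.0223, 8 of 12 fits), both without overlap.

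Hormone and growth signalling lists had 1 or 2 members past the test. Igfbp2, a secreted binder of insulin-like growth factors, measured 352 to 455 (median 385) normalized CPM in daytime and 344 to 1030.3 (median 689) in late libraries (log2 fold change 0.82, SE 0.19, adjusted p 0.0493, 1 of 12 fits). Of the late libraries 5 were above the daytime range and 18 h replicate 1, at 344, below it, and the highest adjusted p of Igfbp2 with 1 library left out was 0.129, without 8 h replicate 2. It was the 1 gene to pass of 41 insulin and FoxO genes and of 32 hepatokine genes. Igfbp1 (0.58, adjusted p 0.683), Irs2 (-0.28, adjusted p 0.712) and Igf1 (0.14, adjusted p 0.473) did not pass, and Igfbp1 was at -0.11 without 18 h replicate 3. Stat5a, which carries growth hormone signals to the nucleus, fell from 20.5 to 28.5 (median 22.8) to 6.54 to 16.6 (median 15) without overlap (log2 fold change -0.78, SE 0.17, adjusted p 0.0317, 4 of 12 fits). Igfbp2 and Stat5a were the 1 higher and the 1 lower gene to pass of 20 on the growth hormone and IGF1 list. Flcn, a regulator of the lysosomal mTORC1 pathway, rose (0.69, adjusted p 0.0281, 7 of 12 fits) without overlap, the 1 gene of 47 on the autophagy and lysosome list. Nampt, which makes the NAD precursor from nicotinamide, was the 1 of 18 sirtuin and NAD genes to pass, and rose (0.65, adjusted p 0.0366, 3 of 12 fits). Higher and lower genes at an unadjusted p under 0.05, and then by DESeq2, numbered 6, 5, 2 and 2 for insulin and FoxO, 6, 2, 2 and 0 for hepatokines, 3, 3, 2 and 1 for growth hormone and IGF1, 7, 2, 1 and 0 for autophagy and lysosome and 2, 2, 1 and 1 for sirtuins and NAD.

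Glucocorticoid response genes had the highest median of the 39 lists over all 12 libraries, with a median log2 fold change of 0.42 (0.35 in lane 2): 26 of 31 had a log2 fold change above 0 and 13 were higher at an unadjusted p under 0.05 (8.99% among all genes), but 0 rose by the adjusted p of edgeR and 4 by DESeq2. Among its members, Fkbp5 (0.78, adjusted p 0.25), Per1 (0.71, adjusted p 0.0799), Mt1 (1.71, adjusted p 0.18) and Mt2 (2.53, adjusted p 0.135) did not pass, though each late library had more Per1 than every daytime library (98.7 and up, against 97.7 at most). Immediate early genes had a median log2 fold change of 0.36 (0.26 in lane 2), 27 genes above 0 and 10 higher and 1 lower at an unadjusted p under 0.05 and 2 and 1 by DESeq2, and the 1 to pass of 32 went the other way: Zfp36l1, an mRNA decay factor, fell from 96.3 to 137 (median 105) to 64.9 to 81.1 (median 71.3) (log2 fold change -0.60, SE 0.10, adjusted p 0.0201, 9 of 12 fits). Egr1 (2.17, adjusted p 0.119), Junb (0.80, adjusted p 0.0502) and Fos (0.14, adjusted p 0.865) did not pass. Egr1 measured 58.6 in 18 h replicate 3 and at most 18.8 in the other 5 late libraries. None of the 28 clock genes passed by edgeR, 12 having an unadjusted p under 0.05 (18.5% among all genes) and 8 passing by DESeq2 (4.67%). Their log2 fold changes and adjusted p include those of Per2 (-0.60, adjusted p 0.0987), Arntl (-1.32, adjusted p 0.118), Dbp (1.18, adjusted p 0.136) and Nr1d1 (0.52, adjusted p 0.245). The libraries share a clock time of death, so clock time at death does not differ between the groups.

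Iron, metal and xenobiotic genes gave further calls. Hfe2, the hemojuvelin co-receptor upstream of hepcidin, fell from 142 to 233 (median 209.6) to 77.4 to 142 (median 102) (log2 fold change -0.89, SE 0.16, adjusted p 0.0201, 8 of 12 fits). Slc30a10, a manganese exporter, fell from 35.9 to 69.9 (median 55.8) to 7.1 to 31.6 (median 17.5) without overlap (log2 fold change -1.55, SE 0.33, adjusted p 0.0468, 3 of 12 fits), and the highest adjusted p of Slc30a10 with 1 library left out was 0.122, without 8 h replicate 2. Hmox1, the inducible heme oxygenase, rose from 8.33 to 13.7 (median 11.6) to 12.1 to 26.9 (median 19.5) (log2 fold change 0.81, SE 0.17, adjusted p 0.0327, 5 of 12 fits). These 3 were the ones to pass of 27 iron and heme genes. Gstt2, a glutathione transferase, and Hmox1 were the 2 to pass of 93 xenobiotic genes, Gstt2 rising from 124 to 148 (median 135) to 151 to 245 (median 197) without overlap (log2 fold change 0.52, SE 0.11, adjusted p 0.0307, 4 of 12 fits). Por (0.58, adjusted p 0.0518), Cyp2b10 (-0.87, adjusted p 0.484) and, on the bile acid list, Cyp7a1 (-0.56, adjusted p 0.256) and Cyp8b1 (-0.55, adjusted p 0.419) did not pass. Stra6l, a receptor for retinol-binding protein, fell (-0.74, adjusted p 0.0281, 6 of 12 fits), as did the cell cycle gene Ccnf, cyclin F (-0.64, adjusted p 0.0468, 3 of 12 fits), each the 1 member of its list to pass, while Cdkn1a did not (1.71, adjusted p 0.256). Cyp2b10 was at -1.735 without 22 h replicate 3. Higher and lower genes at an unadjusted p under 0.05, and then by DESeq2, numbered 4, 6, 2 and 3 for iron and heme, 14, 6, 4 and 2 for xenobiotic genes, 0, 4, 0 and 2 for the thyroid and retinoid list of Stra6l and 6, 3, 0 and 1 for the cell cycle. Upp2, a liver uridine phosphorylase chosen after its values were seen, rose from 225 to 479 (median 419) to 539.9 to 895 (median 644) without overlap (log2 fold change 0.85, SE 0.17, adjusted p 0.0312, 6 of 12 fits).

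Other DEGs sit on no list. Gm33543, a predicted protein-coding gene (chr10:95823973-95842930), rose from 9.23 to 19.9 (median 15.5) to 31.5 to 84.1 (median 44.2) normalized CPM without overlap (log2 fold change 1.75, SE 0.24, adjusted p 0.0124, 11 of 12 fits). Hdc, which makes histamine from histidine, rose from 1.65 to 3.04 (median 2.65) to 4.33 to 6.85 (median 5.52), also without overlap (log2 fold change 1.11, SE 0.20, adjusted p 0.0202, 8 of 12 fits). B3gnt8, a glycosyltransferase that extends N-glycans, rose (1.24, adjusted p 0.0307, 5 of 12 fits). The antisense gene Gm15690 lies over Sds on the other strand and rose with it, from 1.43 to 4.69 (median 2.12) to 3.6 to 14.9 (median 7.82) (log2 fold change 1.72, SE 0.35, adjusted p 0.0331, 5 of 12 fits), but the labels do not give the strand setting of the counting, so its reads and those of Sds may not be separate. Gm14097, antisense to Shld1, rose (1.75, adjusted p 0.0223, 7 of 12 fits), as did 9130230L23Rik (1.97, adjusted p 0.0281, 7 of 12 fits) and CT009713.2 (1.18, adjusted p 0.041, 3 of 12 fits). The lincRNA 1700048O20Rik (-2.07, adjusted p 0.0326, 5 of 12 fits) and its near neighbour Fam198a (-2.54, adjusted p 0.0209, 7 of 12 fits) on the same chromosome fell, and so did 5730405O15Rik (-1.55, adjusted p 0.0307, 5 of 12 fits). Of the 6 genes in the last 2 sentences, the highest daytime median was that of Fam198a, 4.12 normalized CPM.

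Within the late group, 22 h against 18 h, edgeR called 0 genes, with 1198 at an unadjusted p under 0.05 and 59 by DESeq2. Leaving out 18 h replicate 1 raised that 0 to 46. Within the daytime group, 12 h against 8 h, lane and time cannot be told apart but for 8 h replicate 3, since the 3 libraries of 12 h ran in lane 2 and 8 h replicates 1 and 2 in lane 1. In that comparison edgeR called 8 genes (0.057%), with 1559 at an unadjusted p under 0.05 and 93 by DESeq2. Without 8 h replicate 1, 8 h replicate 2 or 12 h replicate 2 that count was 1, 4 and 3, and without 8 h replicate 3 it was 13. The 8 were chosen after their values were seen, and no fit with lane was made for them. Selenbp2 was higher at 12 h, with 1478, 1304 and 1074 normalized CPM at 8 h and 3581, 3268 and 4196 at 12 h (log2 fold change 1.51, adjusted p 0.000687). So were Slc37a1, a sugar phosphate transporter (2.39, 0.0157), and Il1r1, the interleukin 1 receptor (1.03, 0.0157). Lower at 12 h were the lipogenic genes Me1 (-1.08, 0.0207) and Elovl3 (-1.35, 0.0409) and the glycerol phosphate dehydrogenase Gpd1 (-1.05, 0.009), along with Tubb2a (-1.25, 0.0206) and Cox14. Cox14 measured 51.3, 41.6 and 45.0 at 8 h and 21.5, 22.6 and 17.9 at 12 h (-1.15, 0.009).

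The 13 lists with no member past the test by edgeR included cytosolic ribosomal proteins, with 36 of 37 genes above 0 and a median log2 fold change of 0.20 (0.14 in lane 2). For oxidative phosphorylation, 32 of 36 were above 0, with a median log2 fold change of 0.12 (0.14 in lane 2). At an unadjusted p under 0.05 the 2 lists had 4 and 8 higher genes (8.99% among all genes), and DESeq2 called 0. Bile acid synthesis and transport had 0 of 32 (10 at an unadjusted p under 0.05, against 18.5% of all genes, and 2 by DESeq2), the major urinary proteins 0 of 18 (0), male-biased genes 0 of 27 (3) and female-biased genes 0 of 12 (3), the last 3 lists with 0 by DESeq2 as well. Across the 39 lists, 42 of 1139 distinct genes tested passed, against 1.37% of all genes. As the lists were chosen with earlier results of these data known, that difference is not an independent test.

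Among the markers of cells other than hepatocytes and Kupffer cells, edgeR called 0 genes of 56, with 6 at an unadjusted p under 0.05 and 3 by DESeq2, but 1 list varied widely between single libraries. The 6 skeletal muscle markers summed to 1.43, 1.16, 131, 771, 280 and 93.1 normalized CPM in the daytime libraries in order of time and replicate, and to 18, 54.0, 1.43, 1.06, 168 and 82.9 in the late ones. All 6 had a log2 fold change below 0, and 12 h replicate 1 was highest. Red blood cell markers summed to 212 to 757 in daytime and 216 to 905 in late libraries. Stellate cell, cholangiocyte and B cell sums overlapped between the groups, and of 10 T and NK cell, 8 neutrophil, 10 acinar, 6 adipocyte and 5 mesothelium markers, 8, 6, 9, 5 and 3 averaged under 1 normalized CPM. The part of these cells in the results was not tested. Each call rests on 6 mice a group, and lane, time without food and the timing of the missed meal cannot be fully separated by these 12 libraries.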

How the data were processed

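Liver mRNA was sequenced, and the authors deposited raw counts per gene for all 162 libraries. According to the labels and the submitters' processing notes, the authors aligned reads with TopHat2 2.1.1 to GRCm38.p5, with reads of a single best place passed to HTSeq 0.9.1 for counting per Gencode gene. From these deposited counts, genes with at least 10 counts in a library of the median size (1.16 CPM) in at least 3 of the 18 LIV libraries were kept, 14023 in all. The groups were compared in edgeR 4.0.16 (R 4.3.3) with TMM factors and robust quasi-likelihood tests, adjusted by Benjamini-Hochberg over all genes tested. DESeq2 1.42.0, other factors, other filters, single time points, lane, a replicate block and leaving out each library were the alternatives. Levels are normalized CPM, deposited counts over library size times TMM factor. Genes named are the 10 DEGs with the smallest adjusted p in each direction, the 5 with the largest fold change in each direction at a mean of at least 5 normalized CPM, up to 6 members of each gene list, genes well known in fasting, and cell type markers, with others named as chosen after their values were seen. The members and lists were chosen with earlier results of these data known. The 12 libraries held 6959200 to 10910265 counts.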

Additional observations from a re-analysis of the deposited data

Results flagged for a closer look

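Each group of 6 libraries was checked for a library far from the others, its gap to the nearest one taken against the whole range of the group, for every gene named, for the total counts and for each sum of cell markers. Of 276 groups, 27 held such a library, where chance gives about 1 in 20 groups if values are independent and normally distributed. The values here are linear CPM of genes that can vary together, so this rate is only a rough guide. Values are normalized CPM, with that of the nearest library of the group beside each.

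The 12 h replicate 2 library was highest for 1700048O20Rik (5.56, next 2.52), Slc1a5 (32.9, next 21.7), Clec4f (115, next 75.3), Saa1 (379, next 35), Saa2 (217, next 8.02), Lcn2 (44.8, next 3.27) and the Kupffer cell and macrophage marker sum (339, next 221). The 18 h replicate 1 library was highest for Acss2 (94.5, next 69.5), Cxcl11 (8.77, next 4.67), Srebf1 (537, next 298) and Fasn (477, next 247), and lowest for H2-Eb1 (21.6, next 31.2). The 18 h replicate 3 library was highest for Cpt1a (309, next 216), Igfbp1 (40.1, next 14.6) and Egr1 (58.6, next 18.8). In its group, 22 h replicate 3 was highest for Hsp90aa1 (105, next 75.2) and Cox14 (33.1, next 24.6). In its group, 18 h replicate 2 was highest for Chac1 (12, next 6.6) and Junb (23.4, next 15.3). In its group, 8 h replicate 3 was highest for Lcp1 (73.7, next 58.6) and Cpt1a (246, next 155). In its group, 12 h replicate 3 was highest for Fos (1.93, next 1.1), and lowest for Ass1 (84.8, next 114). The 12 h replicate 1 library was highest for Egr1 (10.5, next 4.39) and the skeletal muscle marker sum (771, next 280). The 8 h replicate 2 library was highest for Zfp36l1 (137, next 112). In its group, 22 h replicate 1 was highest for Pdia4 (104, next 76).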

How the results depend on the processing

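The number of DEGs, 17 higher and 23 lower, varied with the settings as follows. DESeq2 gave 60 and 71, no filter on low counts 27 and 30 of 24552 genes, 4 time point groups 33 and 30, late libraries against 8 h alone 25 and 65 and against 12 h alone 0 and 1. Lane 2 alone and lane as a covariate each gave 0 and 0. Without the fold threshold the numbers were 71 and 121. Relative log expression factors gave 17 and 24, filterByExpr 15 and 23, all 18 LIV libraries 12 and 16, 18 h alone 15 and 24, and 22 h alone 15 and 20, all within 1.5 times the reported numbers. Fits without 1 library gave 0 to 59 higher and 3 to 101 lower. Leaving out 18 h replicate 2 and 12 h replicate 3 together, an alternative chosen after seeing the data, gave 2 and 1. For 22 h against 18 h, 0 genes became 59 with DESeq2 and 141 with no filter, and 0 to 46 without 1 library. For 12 h against 8 h, 8 became 93 with DESeq2 and 290 with no filter, and 1 to 13 without 1 library. Relative log expression factors left both at 0 and 8. The cause of these changes was not tested.

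With the replicate number of the titles as a replicate block, DEGs were 16 higher and 15 lower, 22 h against 18 h gave 2 genes and 12 h against 8 h gave 7. Pairs of libraries with the same number had a mean correlation of -0.021 (18 pairs, -0.207 to 0.130, 3 of them over 0.1). In the replicate block the log2 fold change took the other sign, 0.56 for Saa2 and 0.25 for Lcn2.

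Of 116 genes named for late against daytime libraries (the 8 genes of 12 h against 8 h are not among them), 67 passed. All 67 kept their direction in every setting with a value, each of which shares libraries with the fit that picked them. Of them 67 passed with DESeq2, 57 with no filter, 37 with all 18 libraries, 49 with the block and 0 in lane 2, where edgeR has 1511 genes at an unadjusted p under 0.05. Left out singly, 8 h replicates 1, 2 and 3 kept 13, 5 and 61 of them past the test, 12 h replicates 58, 44 and 31, 18 h replicates 67, 7 and 21, and 22 h replicates 51, 4 and 39. A change of direction occurred for 14 of the 49 named genes that did not pass, and the cause was not tested. Their log2 fold change was as follows. With 4 time point groups it was 0.47 for Saa2, 0.25 for Lcn2 and 0.44 for Cyp4a14. For 22 h alone it was -0.02 for Ppargc1a. Against 12 h alone it was 0.42 for G6pc, 0.12 for Scd1, -0.79 for Saa1, -0.03 for Fos and 1.89 for Cyp4a14. In lane 2 it was -0.0014 for Ppara, 0.20 for G6pc, 0.02 for Srebf1 and -0.43 for Saa1. With lane as a covariate it was 0.20 for G6pc, 0.03 for Srebf1 and -0.42 for Saa1. For 18 h alone it was -0.09 for Angptl4, -0.07 for Ppara, 0.25 for Srebf1, 0.02 for Irs2, -0.03 for Saa1, 0.02 for Cyp4a14 and -0.12 for Apoa4. Against 8 h alone it was -0.06 for Ppara, -0.08 for Igfbp1, 2.20 for Saa2, 1.77 for Lcn2 and -0.15 for Apoa4. With both libraries left out it was -0.17 for Saa1. Without 1 library it ranged from -0.05 to 0.18 for Ppara, -0.11 to 0.99 for Igfbp1, -0.28 to 1.91 for Saa1, -0.67 to 2.24 for Saa2, -0.73 to 1.54 for Lcn2 and -0.71 to 0.58 for Cyp4a14.

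A gene under about 0.431 normalized CPM in the shallowest library has fewer than 3 counts there, so its level there is uncertain.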
